A study of Mus musculus with 3 samples.

Results

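The CC chemokine ligand genes Ccl2, Ccl3, Ccl4, Ccl5, Ccl6, Ccl7, Ccl8, Ccl9, Ccl12 and Ccl24, were followed through the cells of TH-MYCN mouse neuroblastomas. They were listed by name, are 10 of the 31053 gene symbols in the single-cell RNA-seq files, and were each counted in every kept cell, per tumor and per class of cells. The 3 tumors came from 3 mice, aged 62, 79 and 63 days for tumors 1, 2 and 3, and each was dissociated whole and run as 1 10x Genomics Chromium 3' library. All mice were heterozygous for the transgene, in which the tyrosine hydroxylase (TH) promoter drives human MYCN in cells of the sympathetic lineage, so that the host's own immune and stromal cells remain. The tumors form a single group with no untreated or healthy tissue beside it, and all comparisons are therefore between classes of cells, with the tumors as replicates (n = 3).

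CC chemokines are small secreted proteins that draw leukocytes along a gradient, by way of receptors on the leukocyte surface. Ccl2, Ccl7 and Ccl12 are monocyte chemoattractants that act through Ccr2, and Ccl8 is their close relative. Ccl3 and Ccl4 are the macrophage inflammatory proteins 1α and 1β, which like Ccl5 draw monocytes and lymphocytes. Ccl6 and Ccl9 are ligands of Ccr1 found in rodents, and Ccl24 is an eotaxin, which draws eosinophils through Ccr3.

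The family is named for a pair of adjacent cysteines near the start of the mature protein, and the codons of this pair differ little between the members. A stretch of 30 coding bases around the pair is given for each of them but Ccl3, 5′ to 3′ from GENCODE transcripts, to show the shared feature and the bases that tell the members apart. Capitals mark the adjacent cysteine codons.
Ccl2: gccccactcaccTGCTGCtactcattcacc
Ccl7: aatgcatccacaTGCTGCtatgtcaagaaa
Ccl8: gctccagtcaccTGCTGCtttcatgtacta
Ccl12: accccagtcacgTGCTGTtataatgttgtt
Ccl4: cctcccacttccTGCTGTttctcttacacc
Ccl5: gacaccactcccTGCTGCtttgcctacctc
Ccl6: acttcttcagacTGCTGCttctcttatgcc
Ccl9: gactcttcagatTGCTGCctgtcctataac
Ccl24: atcccctcatctTGCTGCacgtcctttatt
The next cysteine codon followed after 21 to 23 codons in all 10. The most alike coding sequences were those of Ccl3 and Ccl4 (69.5% of aligned bases), Ccl6 and Ccl9 (66.8%) and Ccl7 and Ccl8 (66.7%). The 3' libraries read the ends of transcripts, and no run of 31 bases in the last 600 bases of a member was shared with another member. Ccl6 shared 18 of its 570 such runs with Slc17a4, Ccl9 shared 4 and Ccl24 shared 1 with other genes, and the other 7 members shared none.

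All members but Ccl24 lie on chromosome 11 (GRCm38). Ccl2 (82035571-82037453), Ccl7 (82045712-82047525), Ccl12 (82101845-82103400) and Ccl8 (82115185-82116799) follow each other on the plus strand. Ccl5 (83525778-83530518), Ccl9 (83572919-83578636), Ccl6 (83587882-83593087) and Ccl3 (83647844-83649355) lie on the minus strand, next to Ccl4 (83662584-83664683) on the plus strand. Ccl24 lies alone on chromosome 5 (135569937-135573049, minus strand). The annotation places no other gene over them.

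Counts rested on 5650 kept cells, 1914, 1221 and 2515 in tumors 1, 2 and 3, which are the barcodes that the authors kept in their normalized values. The median number of UMIs (unique molecular identifiers, 1 per captured RNA molecule) per kept cell was 4282.5 in tumor 1, 1594 in tumor 2 and 1816 in tumor 3. Tumor 1 therefore weighs most in any pooled count. Cells were clustered without the CC ligands and their receptors, and clusters were named from markers. Macrophage-like cells fell into Ccr2+-like (239, 10 and 17 cells in tumors 1, 2 and 3), Pecam1+-like (228, 20 and 39) and Apoe+-like subsets (83, 17 and 33), and 107 further cells without subset markers stayed unnamed. The other classes were neutrophil-like (326 cells), T cell-like (295), B cell-like (211), NK cell-like (53), plasmacytoid dendritic-like (120), endothelial-like (113), erythroid-like (25) and tumor-like cells (3443), and cells like cancer-associated fibroblasts (CAF-like, 129). Another 142 cells stayed unnamed. The CAF-like cluster passed 10 of 10 CAF markers and also 7 of 7 mesothelial markers. Only 4 kept barcodes occurred in more than 1 tumor. Levels are given as CPM, the UMIs of a gene scaled to a common total (1000000) of UMIs of the class in that tumor, as mean ± SD over tumors with at least 10 cells of the class. Fewer producing cells in a class and less RNA per producing cell give the same level.

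**Figure D1:**
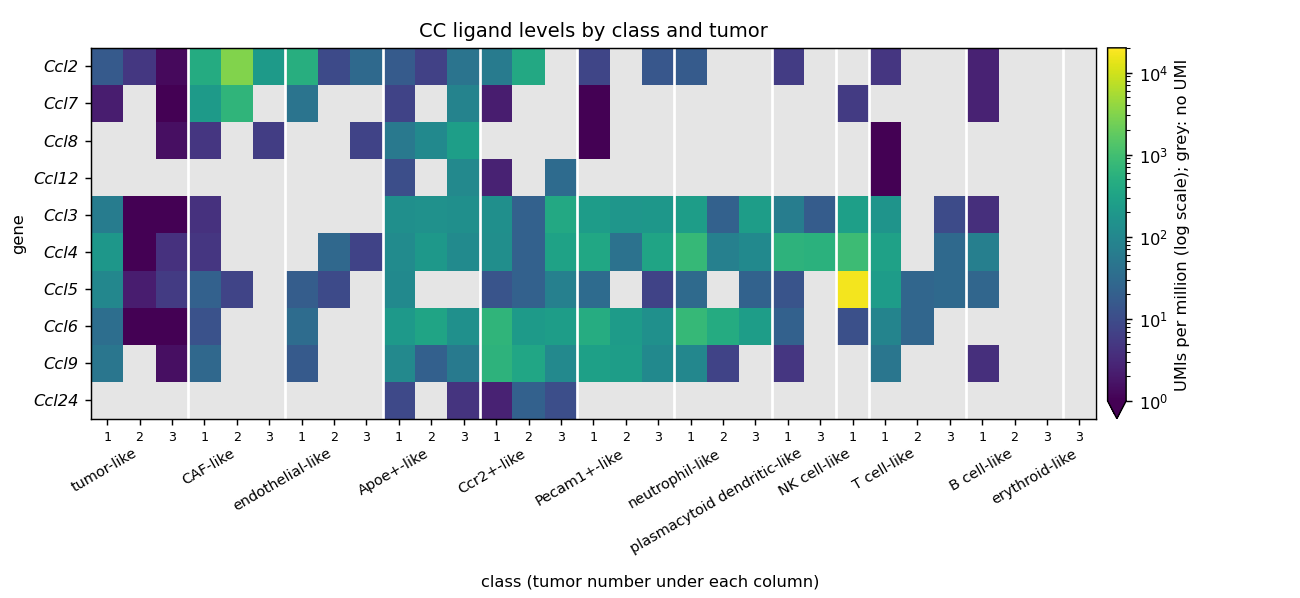
CPM of each of the 10 genes (rows) in each class and tumor with at least 10 cells (columns, tumor number below), on a logarithmic color scale from 1 CPM, with grey where no UMI was counted. Ccl2 and Ccl7 stood out in CAF-like cells, Ccl8 in Apoe+-like cells, Ccl5 in the NK cell-like cells of tumor 1, and Ccl3, Ccl4, Ccl6 and Ccl9 across the myeloid classes.

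The first comparison asked which classes carried each gene. Summed counts of every class were tested against the average of the remaining 11 classes with edgeR, and p-values were adjusted over 7350 genes. All members but Ccl24 passed the filter on low counts, which gave 108 pairs of a class and a member. Of these pairs, 18 were higher in their class (16.7%), against 9.62% of all pairs of a class and a gene, and none was lower. Ccl8 and Ccl12 passed the filter through the Apoe+-like sums in which they were called, so those pairs are no independent support. At an unadjusted p under 0.05, 27 pairs were higher and 0 lower, and DESeq2 called 9 higher and 2 lower (Ccl4 in CAF-like and Ccl3 in endothelial-like cells). With the tumor as a block, 25 pairs were higher. The share over all genes was not counted in these alternative fits. Because the classes were drawn from other genes of the same cells, the p-values leave out the error of drawing them. The 18 pairs fell into 7 classes, all of them myeloid, stromal, endothelial or NK cell-like. Read against all genes called higher in the same class, these were 2 of 9 members in CAF-like cells (15.7% of genes), 1 in endothelial-like (12.4%), 4 in Apoe+-like (12.1%), 4 in Ccr2+-like (10.1%), 3 in Pecam1+-like (11.9%), 3 in neutrophil-like (15.3%) and 1 in NK cell-like cells (2.67%). None was called in B cell-like (2.48% of genes), T cell-like (2.08%), plasmacytoid dendritic-like (5.73%), erythroid-like (0.068%) or tumor-like cells (25% of genes). Tumor-like cells made up 60.9% of the kept cells, and 5.32% of them had a UMI of any member, against 97.4% of Ccr2+-like cells, 88.9% of Pecam1+-like, 88.7% of NK cell-like and 81.2% of Apoe+-like cells. Median depth went from 1638 UMIs in tumor-like cells to 12632 in Apoe+-like cells, and a deeper cell is more likely to show a UMI.

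**Figure D2:**
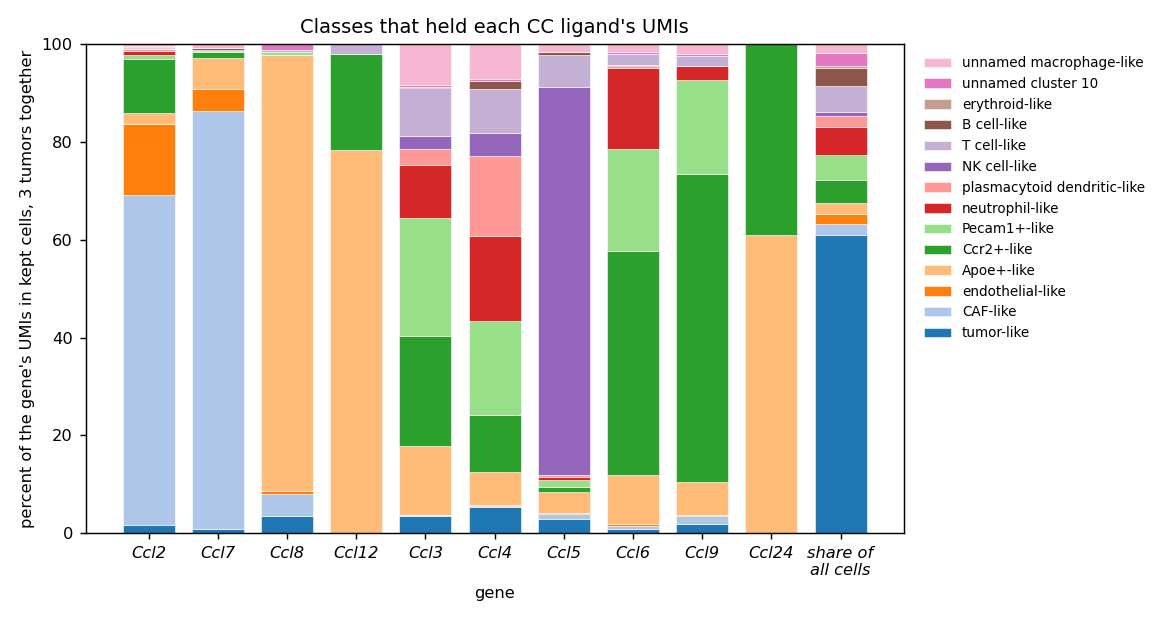
Percent of each gene's UMIs in kept cells that each class held (stacked bars, the 3 tumors together), with the share of each class among all kept cells in the last bar. CAF-like cells were 2.28% of the cells and held 67.3% of the Ccl2 and 85.5% of the Ccl7 UMIs, while the Ccl3 and Ccl4 UMIs were spread over many classes.

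Ccl2, the chemoattractant that brings monocytes into tissue, was highest by mean in CAF-like cells. These cells stood at 450.7, 3023 and 224.8 CPM in tumors 1, 2 and 3 (671, 400 and 37 UMIs), or 1233 ± 1555 CPM. Tumor 2 was far above the others, and all 3 tumors lay above the Apoe+-like, Pecam1+-like, neutrophil-like, lymphoid and tumor-like levels of every tumor. Endothelial-like cells of tumor 1 (493.7 CPM) and Ccr2+-like cells of tumor 2 (390.4 CPM) overlapped their range. Of the 1647 Ccl2 UMIs in kept cells, CAF-like cells held 67.3%. The log2 fold change over the other classes was 7.45 (SE 0.83, adjusted p = 7.1e-08). The cells of tumor 2 numbered 14. The summed level of 18 immediate response genes, which dissociation and stress can raise, was also highest in tumor 2 among the CAF-like sums, at 22731 CPM on the TMM scale against 10096 in tumor 1 and 6937 in tumor 3. The part of those genes in the Ccl2 level was not tested.

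Ccl7, the neighboring gene with a like action on monocytes, had the same main source in tumors 1 and 2, while in tumor 3 Apoe+-like cells held 19 of its 21 UMIs. CAF-like cells stood at 219.6, 642.5 and 0 CPM (327, 85 and 0 UMIs), with a log2 fold change of 7.67 over the other classes (SE 0.89, adjusted p = 6.1e-07). Tumor 3 had no Ccl7 UMI in its 35 CAF-like cells, where a count of 0 allows up to 18.2 CPM. Among CAF-like cells, 48 had a UMI of Ccl2 and 33 a UMI of Ccl7, and 28 had both. The adjusted p of Ccl7 was 0.112 with DESeq2, where the log2 fold change was 6.72.

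Endothelial-like cells were the next class by mean for Ccl2, at 493.7, 9.31 and 29.8 CPM. This mean rested on tumor 1, where 236 UMIs were counted in 5 cells and 165 of them in a single cell. That cell had UMIs of 4 of the 8 endothelial markers. The log2 fold change of 4.43 (SE 0.93, adjusted p = 8.6e-04) fell to 2.40 without tumor 1 (adjusted p = 0.795). The cell with 165 Ccl2 UMIs also held all 22 Ccl7 UMIs of the endothelial-like cells.

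Ccr2+-like cells, the subset nearest to blood monocytes by its naming genes, held 182 of the 1647 Ccl2 UMIs. Their levels were 61.5, 390.4 and 0 CPM (164, 18 and 0 UMIs, in 26, 2 and 0 cells), so that tumors 2 and 3 lay on opposite sides of tumor 1. The log2 fold change over all other classes was 3.88 (SE 1.13, adjusted p = 0.0261). It missed the threshold without tumor 1 (adjusted p = 0.0718), without tumor 2 (2.63, adjusted p = 0.311) and with DESeq2 (adjusted p = 0.101). Apoe+-like cells stood at 17.0, 6.83 and 44.7 CPM, and tumor-like cells at 16.7, 4.98 and 1.27 CPM.

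Ccl8, a relative of Ccl2 that tissue macrophages can secrete, came mainly from Apoe+-like cells, which held 154 of its 173 UMIs (89.0%) and were 2.35% of the kept cells. The levels were 54.9, 109.3 and 254.9 CPM, with exact Poisson intervals at 95% of 43.6 to 68.3, 62.5 to 177.5 and 193.0 to 330.2 CPM that cover counting error only. All 3 tumors lay above every other class and tumor. The next highest value was 18.7 CPM, from 2 UMIs in the unnamed cluster of tumor 3 that was led by Atp6v0d2, Il18bp and Mmp12, and named classes reached 7.45 CPM at most. The log2 fold change over all other classes was 8.23 (SE 0.65, adjusted p = 2.3e-08). Ccl8 could pass the filter on low counts only through the Apoe+-like sums, so this call is no support beyond the levels themselves. Few cells carried it: 3 of 83 cells in tumor 1, 5 of 17 in tumor 2 and 7 of 33 in tumor 3 had a UMI, and 75 of the 81 UMIs in tumor 1 came from a single cell that had all 10 macrophage markers. Ccr2+-like and neutrophil-like cells had no Ccl8 UMI.

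Ccl12, another monocyte chemoattractant, had 51 UMIs in all. Apoe+-like cells held 40 of them and Ccr2+-like cells 10. Apoe+-like levels were 10.9, 0 and 107.3 CPM (16, 0 and 24 UMIs in 3, 0 and 3 cells), and Ccr2+-like levels were 2.63, 0 and 32.3 CPM. Both subsets were highest in tumor 3 and without a UMI in tumor 2. Apoe+-like cells were higher than the other classes (log2 fold change 6.92, SE 1.03, adjusted p = 3.8e-04), and the adjusted p was 0.720 with DESeq2. Ccl12 passed the filter on low counts through the Apoe+-like sum of tumor 3, so the call is no support beyond the levels. In the authors' corrected counts, the Apoe+-like mean was 3.46 CPM against 39.4 in the raw counts, and Ccl12 failed the filter. A gene absent from a tumor's corrected values was set to 0 there, and Ccl12 was found in 4 kept cells of tumor 3. Whether removal of ambient RNA or such an absence lowered the mean was not tested. Ccl7 was also called in Apoe+-like cells, at 7.46, 0 and 85.0 CPM (log2 fold change 4.20, adjusted p = 0.0249), and was lost without tumor 1 (adjusted p = 0.0800) and without tumor 3 (1.69, adjusted p = 0.485). Ccl12 in Ccr2+-like cells missed the threshold (adjusted p = 0.0503) and passed it with the tumor as a block (4.26, adjusted p = 0.00263).

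Ccl3, which draws monocytes and lymphocytes to inflamed tissue, was spread over the myeloid classes. Pecam1+-like cells stood at 239.8, 178.7 and 188.0 CPM, Apoe+-like cells at 136.4, 150.2 and 138.6 CPM, Ccr2+-like cells at 137.6, 21.7 and 388.2 CPM, and neutrophil-like cells at 246.4, 22.1 and 246.4 CPM. The first of these subsets was above the second in every tumor, at 202.2 ± 32.9 against 141.7 ± 7.46 CPM. Ccr2+-like and neutrophil-like cells of tumor 2 were low, with 1 and 3 UMIs, and these classes overlapped all the others. Pecam1+-like cells were 3.52 higher than the other classes on the log2 scale (adjusted p = 0.0167), neutrophil-like cells 3.50 (adjusted p = 0.0138) and Ccr2+-like cells 3.42 (adjusted p = 0.0308). Without tumor 3 these missed the threshold, at adjusted p = 0.158, 0.0615 and 0.686. Apoe+-like cells were at 3.05 (adjusted p = 0.0516), and at 3.83 with the tumor as a block (adjusted p = 7.2e-04). NK cell-like cells of tumor 1 stood at 263.5 CPM, from 47 UMIs.

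Ccl4, from the gene beside Ccl3, was highest in NK cell-like cells of tumor 1, at 874.7 CPM (156 UMIs in 18 of 38 cells). Plasmacytoid dendritic-like cells came next by mean, at 612.6 and 555.7 CPM in tumors 1 and 3, though neutrophil-like and unnamed macrophage-like cells exceeded them in tumor 1. Their 5 cells in tumor 2, too few for a sum, had 6 UMIs, all in 1 cell. The log2 fold change of plasmacytoid dendritic-like cells over the other classes was 3.44 (SE 1.15, adjusted p = 0.0858), which missed the threshold, and 3.39 with the tumor as a block (adjusted p = 0.0128). Neutrophil-like cells stood at 774.1, 73.6 and 112.0 CPM and were called higher (log2 fold change 3.24, SE 1.03, adjusted p = 0.0282), but not without tumor 1 (adjusted p = 0.263) or tumor 3 (adjusted p = 0.0927). Pecam1+-like cells were at 363.4, 41.2 and 325.4 CPM, Ccr2+-like cells at 135.0, 21.7 and 301.9 CPM and Apoe+-like cells at 120.1, 198.1 and 116.3 CPM. These 3 subsets overlapped each other. With the tumor as a block, Pecam1+-like cells were 2.72 higher than the other classes (adjusted p = 0.0323).

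The proportion of the pair is given as a description. Apoe+-like and Ccr2+-like cells had 1.09 and 1.04 Ccl3 UMIs per Ccl4 UMI over the 3 tumors, Pecam1+-like cells 0.671 and plasmacytoid dendritic-like cells 0.105. In Pecam1+-like cells 218 of the 651 Ccl4 UMIs came from 1 cell of tumor 1. In Apoe+-like cells, 27 cells had both genes, of 43 with Ccl3 and 45 with Ccl4. In plasmacytoid dendritic-like cells, 13 of the 15 cells with Ccl3 also had Ccl4, and 55 cells had Ccl4. These are descriptions of pooled cells, most of them from tumor 1.

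Ccl5, which cytotoxic lymphocytes secrete, had its highest levels in NK cell-like cells. They were 0.938% of the kept cells and held 3019 of its 3804 UMIs (79.4%). Most of these UMIs were from tumor 1. In tumor 2 NK cell-like cells held 23 of 33, but in tumor 3 they held 11 of 98 (11.2%), where 53 (54.1%) lay in 3 unnamed macrophage-like cells and 22 (22.4%) in tumor-like cells. In tumor 1, 35 of 38 cells had a UMI, and the level was 16736 CPM (exact Poisson interval 16141 to 17348). In tumors 2 and 3, 6 of 7 and 6 of 8 cells had a UMI, at 1951 CPM (1237 to 2928) and 905.4 CPM (452.0 to 1620), from 23 and 11 UMIs. The gene was found in most NK cell-like cells of each tumor, while the level in tumor 1 was above the intervals of the others. Only tumor 1 had enough cells for a sum, and the log2 fold change of 10.00 (SE 0.90, adjusted p = 2.2e-08) assumed that this lone sum varied like the other classes. When the cells were clustered more coarsely, NK cell-like cells merged with T cell-like cells, and Ccl5 was called there (adjusted p = 1.9e-04).

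T cell-like cells stood at 234.4, 26.2 and 29.1 CPM of Ccl5 in tumors 1, 2 and 3, and 45 of 295 cells had a UMI. Apoe+-like cells had 110.6 CPM in tumor 1 and none in tumors 2 and 3, and 141 of the 163 UMIs in tumor 1 lay in a single cell that had 8 of 8 NK cell markers and 9 of 10 macrophage markers. After each cell was thinned to 500 UMIs, 73.6% of NK cell-like cells had a Ccl5 UMI (88.7% before thinning), against 6.10% of T cell-like, 1.42% of B cell-like and 1.07% of tumor-like cells. Tumor cells and B cells should lack the gene, so that values near those of these classes were read as background. The tumor-like class of tumor 1 was mixed, however. Its 7 plasma cell markers summed to 7946 CPM, against 21.3 and 33.9 in tumors 2 and 3. A single cell held 28 of its 88 Ccl5 UMIs.

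Ccl6, a ligand made mainly by myeloid cells, was found in all 4 myeloid classes of every tumor. Neutrophil-like cells stood at 759.3, 448.8 and 246.4 CPM, Ccr2+-like cells at 644.3, 216.9 and 248.0 CPM, Pecam1+-like cells at 455.6, 233.7 and 144.6 CPM and Apoe+-like cells at 203.5, 327.8 and 143.1 CPM. The means (484.8 ± 258.3, 369.7 ± 238.3, 278.0 ± 160.1 and 224.8 ± 94.2 CPM) overlapped in their ranges, and tumor 1 was the highest in all but Apoe+-like cells. Neutrophil-like cells were above Pecam1+-like cells in each tumor. Each class was above the lymphoid, stromal and tumor-like classes. Tumor-like cells, which should lack the gene, stood at 35.7, 0.553 and 1.012 CPM, highest in tumor 1, where myeloid cells were most numerous. The part of free RNA, or of immune cells within the tumor-like class, in such low levels was not tested. Against the other classes, neutrophil-like cells were 5.31 higher on the log2 scale (adjusted p = 2.3e-05), Ccr2+-like cells 4.69 (adjusted p = 3.6e-04) and Pecam1+-like cells 4.12 (adjusted p = 0.00171). Apoe+-like cells were 3.83 higher (adjusted p = 0.00394), which was lost without tumor 2 (adjusted p = 0.116).

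Ccl9, the neighbor of Ccl6 and its nearest member in sequence, had a narrower pattern. Ccr2+-like cells stood at 605.3, 347.0 and 107.8 CPM and held 62.9% of the 2608 UMIs, most of which were from tumor 1. Their share was 64.1%, 42.1% and 18.9% in tumors 1, 2 and 3, below that of Pecam1+-like cells in tumor 2 (47.4%) and tumor 3 (28.3%). Pecam1+-like cells stood at 281.4, 247.5 and 108.5 CPM and Apoe+-like cells at 107.2, 20.5 and 58.1 CPM. In each tumor Apoe+-like cells were the lowest of the 3 subsets, while Ccr2+-like and Pecam1+-like cells differed little in tumor 3. Neutrophil-like cells stood at 98.3, 7.36 and 0 CPM, and 53 of the 73 UMIs in tumor 1 came from 1 cell. The log2 fold change over the other classes was 5.41 in Ccr2+-like (SE 0.91, adjusted p = 1.5e-04) and 4.47 in Pecam1+-like cells (SE 0.99, adjusted p = 0.00225). In Ccr2+-like cells, 193 of 266 cells had UMIs of both Ccl6 and Ccl9.

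**Figure D3:**
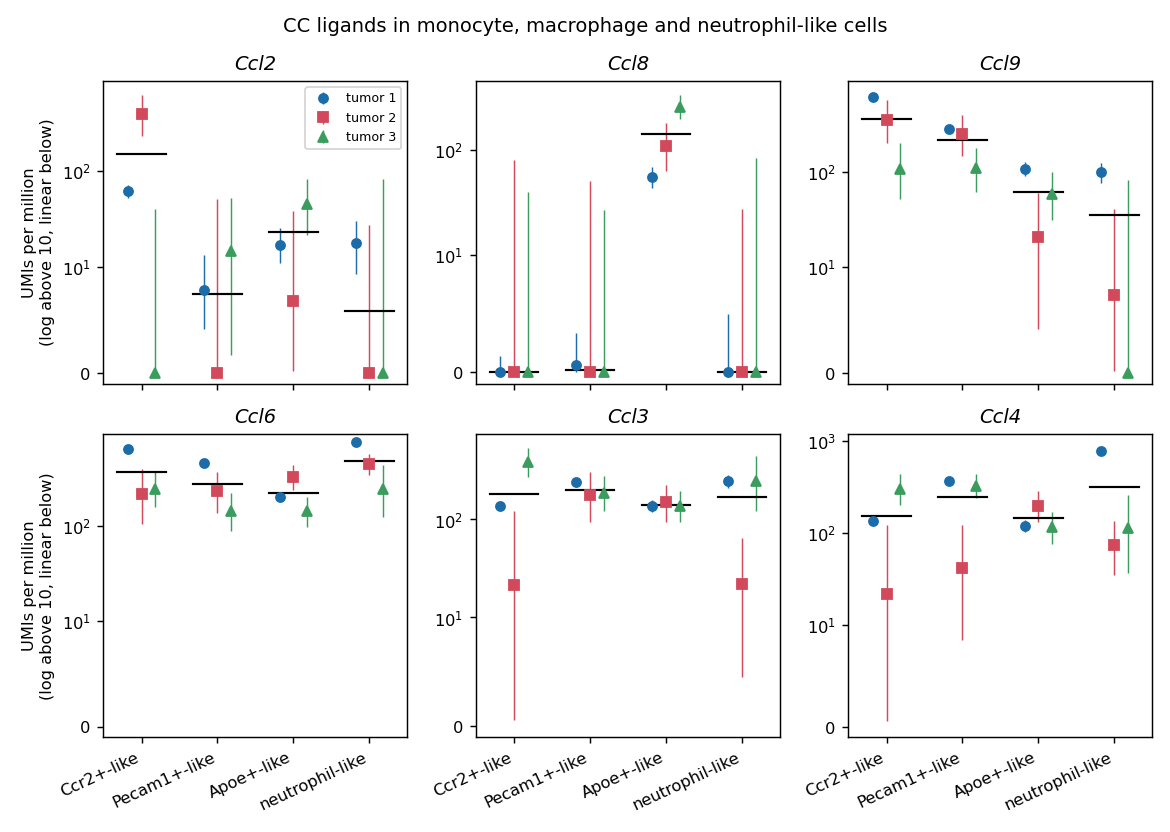
CPM of 6 genes in the 3 monocyte and macrophage subsets and in neutrophil-like cells, 1 point per tumor with its exact Poisson interval at 95%, and black lines at the means. The vertical axis is logarithmic above 10 CPM and linear below. Ccl8 was found in Apoe+-like cells of each tumor, and Ccl9 was lower there than in the other subsets in each tumor.

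The promoters of Ccl6 and Ccl9 are shown because they share the longest run of bases among the members with a listed promoter. The levels of these genes had a Pearson r of 0.824 over the 31 sums of a class and a tumor (log2 CPM, a description across classes that share tumors and depth), and those of Ccl3 and Ccl6, whose promoters share 7 bases at most, had 0.825. RefSeq (GRCm38.p6) gave both, with the 100 bases before each start site on the minus strand of chromosome 11, and capitals mark a run of 13 bases that they share.
Ccl6, chr11:83593088-83593187: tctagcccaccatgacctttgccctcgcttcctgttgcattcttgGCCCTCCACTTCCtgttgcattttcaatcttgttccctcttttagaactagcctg
Ccl9, chr11:83578637-83578736: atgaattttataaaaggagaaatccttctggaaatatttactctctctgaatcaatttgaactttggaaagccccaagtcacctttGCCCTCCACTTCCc
The run starts 55 bases before the start site in Ccl6 and 14 bases before it in Ccl9. On the same strand or its reverse it lies in 6 of the 32851 promoters in the table (0.0183%). The other pairs of members with a listed promoter (Ccl3, Ccl8 and Ccl12 beside these) shared runs of 6 to 9 bases at most. The match is a likeness of letters only.

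Ccl24 was the rarest member, with 23 UMIs. Ccr2+-like cells had 7, 1 and 1 UMIs (2.63, 21.7 and 10.8 CPM) and Apoe+-like cells 13, 0 and 1 (8.82, 0 and 4.47 CPM), of which 8 came from 1 cell. No other class had any. In the 3443 tumor-like cells, 0 cells with a UMI allow a share of such cells of up to 0.0871% at this depth, which does not limit the share that expressed the gene. The gene did not pass the filter on low counts and was not tested, and the order of the 2 subsets cannot be told from these counts.

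Set against each other, the 3 subsets showed no difference in a member that passed the threshold in the chosen fit. Only Ccl3, Ccl4, Ccl6 and Ccl9 passed its filter on low counts. In Ccr2+-like cells the log2 fold change of Ccl9 over the other subsets was 1.59 (SE 0.51, adjusted p = 0.241), where 0.259% of 2700 genes were called higher and 0.037% lower. With the tumor as a block it was 1.52 (adjusted p = 0.0108). In Apoe+-like cells Ccl9 was 1.87 lower on the log2 scale (log2 fold change -1.87, SE 0.58, adjusted p = 0.0618), beside 7.78% of genes called higher and 3.81% lower. That value passed with the tumor as a block (-1.83, adjusted p = 0.00166) and with DESeq2 (-1.91, adjusted p = 0.0126). In Pecam1+-like cells, where 4.19% and 4.37% of genes were called, the 4 members lay between -0.19 and 0.63, with adjusted p-values of 0.602 to 0.898. None of the 4 members passed the threshold in these 3 comparisons. At an unadjusted p under 0.05, DESeq2 and edgeR both had Ccl9 alone, in the Ccr2+-like and the Apoe+-like comparison.

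Ccl8, which the filter had left out, was tested without it. Its log2 fold change in Apoe+-like cells over the other subsets was then 8.50 (SE 0.77, adjusted p = 1.4e-09). Ccr2+-like cells had no Ccl8 UMI and Pecam1+-like cells 1, so that the gene can pass a filter only through the Apoe+-like sums, and fits in which it did so are no further support. In the same fit Apoe+-like cells exceeded the other subsets by 5.11 in Ccl12 (adjusted p = 0.00599) and by 4.46 in Ccl7 (adjusted p = 0.00718). Ccl2 in Ccr2+-like cells was 2.84 higher without the filter (adjusted p = 0.0226).

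Neutrophil-like cells were also set against the mean of the 3 subsets, where 13.4% of 2944 genes were called higher and 10.3% lower. None of the 4 members tested passed. Ccl6 differed by 1.15 (SE 0.51, adjusted p = 0.131), Ccl4 by 1.46 (SE 0.74, adjusted p = 0.180), Ccl3 by 0.30 (SE 0.63, adjusted p = 0.791) and Ccl9 by -1.26 (SE 0.79, adjusted p = 0.291). At an unadjusted p under 0.05 there was Ccl6 alone with edgeR and none with DESeq2. With the tumor as a block Ccl6 was 0.98 higher (adjusted p = 0.0375) and Ccl9 1.57 lower (log2 fold change -1.57, adjusted p = 0.0361). Ccl9 was also lower without tumor 1 (-4.11, adjusted p = 0.0211).

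Of the 73 Ccl9 UMIs in neutrophil-like cells of tumor 1, 53 lay in 1 cell that carried markers of another type. In all, 4 kept cells had UMIs of at least 5 of 8 basophil and mast cell markers, and clustering placed 3 of them with T cell-like cells and 1 with neutrophil-like cells. The 3 cells among T cell-like cells had 0 or 1 of the 10 T cell markers. Together the 4 cells held 471 of the 3104 Ccl4 UMIs of tumor 1's kept cells (15.2%), 189 of 1610 Ccl3 UMIs (11.7%), 95 of 2517 Ccl9 UMIs and 90 of 3575 Ccl6 UMIs, and 1 Ccl5 UMI. One of them had 259 Ccl4 and 151 Ccl3 UMIs among its 5697 UMIs, the highest count of both genes in any kept cell. A neutrophil-like cell with 2 of the markers had 199 Ccl4 and 59 Ccl3 UMIs.

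Without these 4 cells the levels of the classes that held them changed. Ccl4 in T cell-like cells went from 107.1 ± 161.0 to 17.5 ± 15.4 CPM, Ccl3 from 60.1 ± 95.9 to 5.18 ± 4.88 CPM and Ccl9 from 16.1 ± 27.8 to 2.61 ± 4.51 CPM. Ccl5 in T cell-like cells stayed at 97.2 ± 120.6 CPM. In neutrophil-like cells Ccl9 went from 35.2 ± 54.7 to 11.6 ± 14.1 CPM and Ccl4 from 319.9 ± 393.8 to 236.2 ± 249.2 CPM. Ccl9 was then lower in neutrophil-like cells than in the subsets (log2 fold change -2.75, SE 0.77, adjusted p = 0.0189). The count of called pairs of a class and a member rose from 18 to 21 of 108, and the share over all genes was not counted there. This way of counting was chosen after the cells had been seen.

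**Figure D4:**
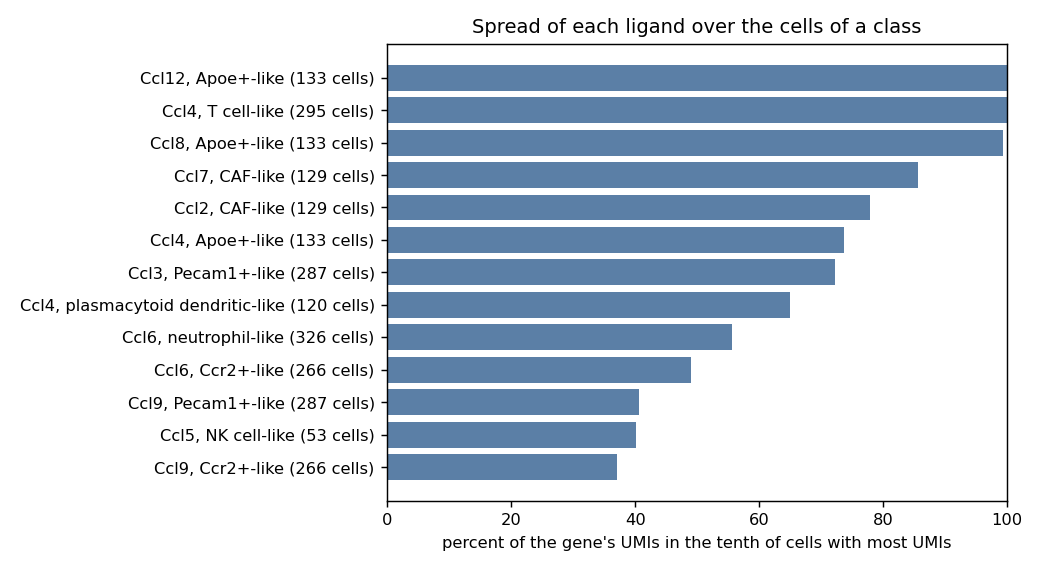
Percent of a gene's UMIs in a class that lay in the tenth of its cells with the most UMIs of that gene, over the 3 tumors, for 13 pairs of a gene and a class. The bars run from 37.1% for Ccl9 in Ccr2+-like cells to 100% for Ccl12 in Apoe+-like cells and Ccl4 in T cell-like cells.

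The members differed in how evenly the cells of a class shared them. The tenth of Ccr2+-like cells with the most Ccl9 held 37.1% of its UMIs, and the highest cell had 56. For Ccl5 in NK cell-like cells this share was 40.1% and for Ccl6 in Ccr2+-like cells 48.9%. Ccl4 in plasmacytoid dendritic-like cells reached 65.0%, Ccl3 in Pecam1+-like cells 72.3%, Ccl2 in CAF-like cells 78.0% and Ccl7 there 85.7%. Ccl8 in Apoe+-like cells reached 99.4%. These shares depend on depth and on the level of the gene, since a gene with few UMIs cannot reach many cells.

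Shares of cells with a UMI were compared after each cell was thinned to 500 UMIs, which left no cell out. Ccl9 was found in 24.4% of Ccr2+-like cells (86.8% before thinning), 11.8% of Pecam1+-like and 3.76% of Apoe+-like cells, against 0.378% of tumor-like cells. Ccl6 was found in 22.1% of neutrophil-like cells (47.5% before thinning), 20.2% of Pecam1+-like (73.2%), 17.7% of Ccr2+-like (79.7%) and 8.27% of Apoe+-like cells (60.2%), against 0.319% of tumor-like cells. Neutrophil-like cells were thus the lowest of these before thinning and the highest after it. Ccl2 was found in 16.3% of CAF-like cells (37.2% before thinning) and 0.319% of tumor-like cells, and Ccl4 in 16.7% of plasmacytoid dendritic-like cells (45.8% before thinning).

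The receptors of these ligands had their own sources. Of 11 CC receptors, 5 passed the filter over all classes. Ccr1, the receptor of Ccl3, Ccl5, Ccl6 and Ccl9, stood at 747.0 ± 354.8 CPM in neutrophil-like cells and 106.8 ± 77.6 in Ccr2+-like cells, and was 4.91 higher (log2) in neutrophil-like cells than in the subsets (adjusted p = 1.4e-04). In Pecam1+-like cells Ccr1 was lower than in the other subsets (log2 fold change -3.63, adjusted p = 0.0494). Ccr2 was among the genes that named its subset, where it stood at 544.4 ± 257.7 CPM, and was also found in plasmacytoid dendritic-like cells at 340.0 ± 100.6 CPM (log2 fold change 4.23, adjusted p = 0.00137). Ccr7, which guides cells to lymph nodes, was at 276.4 ± 25.5 CPM in T cell-like and 245.0 ± 127.5 in B cell-like cells, and Ccr9 at 458.1 ± 216.9 in plasmacytoid dendritic-like cells. Of 4 atypical receptors, Ccrl2 alone was tested, at 932.7 ± 474.9 CPM in neutrophil-like cells and 2.37 higher (log2) than in the subsets (adjusted p = 6.5e-04).

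Among the 14 other CC ligands in the files, 2 passed the filter over all classes. Ccl11, an eotaxin, stood at 52.3 ± 30.2 CPM in CAF-like cells (log2 fold change over the other classes 6.57, adjusted p = 1.9e-08). Ccl21a, which guides cells with Ccr7, was at 139.6 ± 241.9 CPM in endothelial-like cells (log2 fold change 8.63, adjusted p = 3.2e-04). Its 45 UMIs there lay in at most 3 cells of tumor 2, and these cells of tumors 1 and 3 had none. Ccl21a passed the filter on low counts through that sum, so the call is no support beyond the level. Its corrected count was 0, a value also given to genes absent from a tumor's corrected values. The cause was not tested. The immediate response genes were called in several of the classes that held the members. Of 18, 14 were higher in neutrophil-like, 9 in CAF-like, 7 each in Ccr2+-like and Pecam1+-like and 5 in Apoe+-like cells than in the other classes, and 0 in NK cell-like, endothelial-like or plasmacytoid dendritic-like cells. Their part in the levels of the members was not tested.

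Other genes followed the members' patterns over the 31 sums (Pearson r of log2 CPM among 7224 genes, as a description). Ccl2 was most like Cygb (0.888) and Flrt2 (0.848), and Ccl7 most like Cfb (0.860) and Muc16 (0.845), a mesothelial gene. Ccl8 was most like Kcnj10 (0.923) and Fcna (0.915), and Ccl12 most like Cxcl13 (0.909) and Fcgr1 (0.769). Ccl5 was most like Gzma (0.874), a granule protease of cytotoxic cells, and Klrk1 (0.838), an NK cell receptor. Ccl6 was most like Lilr4b (0.956) and Cd300lb (0.938), and Ccl9 most like Adgre4 (0.919) and Clec4a1 (0.910). Ccl3 (Was and Plek, both 0.898) and Ccl4 (Sash3, 0.870, and Selplg, 0.860) were most like genes found across leukocytes. Among the members, the highest values were 0.880 for Ccl3 and Ccl4, 0.825 for Ccl3 and Ccl6, 0.824 for Ccl6 and Ccl9 and 0.723 for Ccl2 and Ccl7.

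The 107 unnamed macrophage-like cells also carried Ccl3, Ccl4 and, in tumor 3, Ccl5. Ccl3 stood at 380.6, 28.5 and 327.2 CPM and Ccl4 at 618.0, 161.4 and 407.0 CPM in tumors 1, 2 and 3. Their leading genes included Siglech and Cd209d, which also led the plasmacytoid dendritic-like cells, and Igkc, an immunoglobulin gene. Ccl5 stood at 17.5, 9.49 and 423.0 CPM, the last from 3 cells of which 1 had 29 UMIs. These cells entered no comparison.

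**Figure D5:**
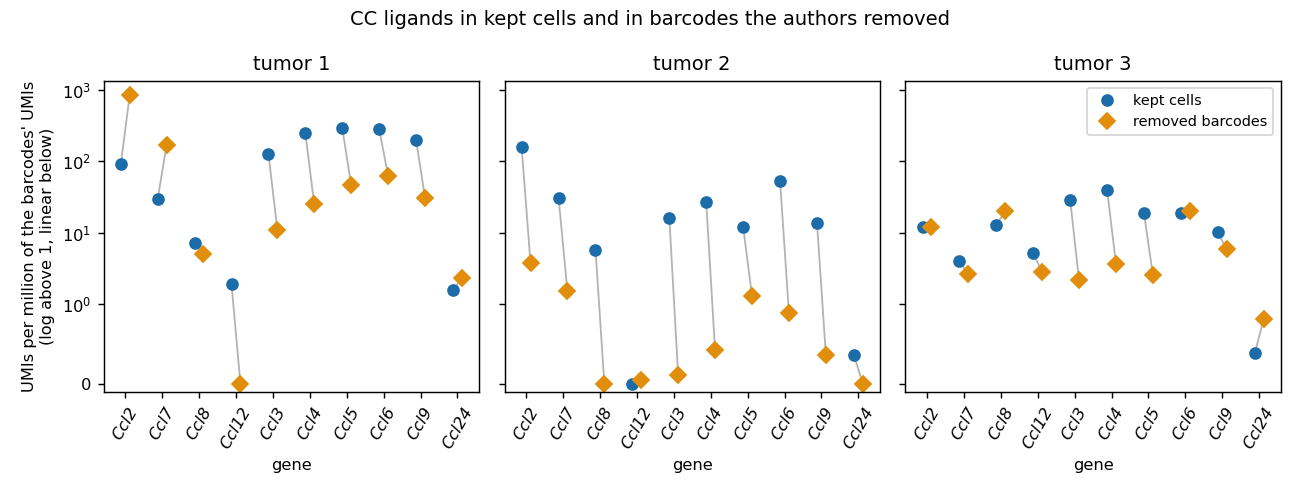
CPM of each gene in the kept cells (circles) and in the barcodes that the authors removed (diamonds), by tumor, on an axis that is logarithmic above 1 CPM and linear below. In tumor 1, Ccl2 stood at 837.1 CPM in the removed barcodes against 91.4 CPM in the kept cells.

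Barcodes that the authors had removed held 71.7% of all Ccl2 UMIs, 64.2% of the Ccl7 and 65.2% of the Ccl8 UMIs in the raw files, against 4.55% of the Ccl3, 5.07% of the Ccl4, 6.95% of the Ccl5, 8.39% of the Ccl9 and 13.8% of the Ccl6 UMIs. Ccl12 was at 45.7% and Ccl24 at 50%. These pooled shares are mostly those of tumor 1 (for Ccl8 and Ccl12 of tumor 3), and they differed between tumors. For Ccl2 they were 77.3%, 14.3% and 74.2% in tumors 1, 2 and 3, for Ccl7 67.9%, 25.4% and 65.0%, and for Ccl8 21.1%, 0% and 81.7%. In tumor 3 the removed barcodes also held 75.3% of the Ccl6 and 62.1% of the Ccl9 UMIs. Of all genes' UMIs, kept cells had 12628160 of 17319240 in tumor 1, 2740537 of 21829500 in tumor 2 and 5215401 of 20041040 in tumor 3. A high share in tumors 2 and 3 is therefore no enrichment by itself. In CPM, removed and kept levels of tumor 3 were 12.2 and 12.1 for Ccl2 and 20.2 and 18.8 for Ccl6. Ccl7 (2.63 and 4.03) and Ccl9 (5.87 and 10.2) were lower in the removed barcodes, and Ccl8 (20.2 and 12.8) was higher. The removed barcodes with more mitochondrial RNA than any kept cell were 81.2% of all in tumor 1, and held 2.24% of its Ccl2 UMIs. Also in tumor 1, 25 removed barcodes with more UMIs than the deepest kept cell (56703) and a median mitochondrial share of 4.01% held 70.1% of all its Ccl2 UMIs and 61.9% of its Ccl7 UMIs. Of these 25, 19 had at least 5 of 10 CAF markers, and those 19 stood at 1942 CPM of Ccl2. At least 5 of 10 macrophage markers were found in 10 of the 25, so that some barcodes had both. The barcodes with most Ccl2 (1410, 1040 and 486 UMIs) had 9 CAF markers each, and 3, 1 and 9 macrophage markers. In tumor 3, 42 such barcodes had more UMIs than its deepest kept cell (12903) and held 78.5% of its Ccl8 UMIs. Of the 300 Ccl8 UMIs in its removed barcodes, 150 and 122 came from a pair of barcodes that each had all 10 macrophage markers. Whether such barcodes hold 1 cell or several was not tested.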

How the data were processed

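Whole TH-MYCN tumors were dissociated and profiled by 10x Genomics Chromium 3' single-cell RNA-seq. Per the labels, reads were processed with Cell Ranger 3.1.0 on mm10 and with Seurat 3.1.5. The raw count files deposited by the authors hold whole UMI counts per gene and barcode, with no normalization. The normalized files deposited by the authors hold natural log values, ln(1 + corrected count), after the authors had removed ambient RNA, doublets and barcodes outside limits of quality. No doublet caller was run here. Their barcodes were taken as the kept cells, and all levels and tests use the raw counts of these cells, except where corrected counts are named.

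Cells were integrated and clustered with Seurat 5.3.0 in R 4.3.3 (2000 variable genes, 30 dimensions, 20 neighbors, resolution 1), with all chemokine ligands and receptors held out. A cluster was named where at least 3 markers of a type were 2-fold higher in it and found in 10% of its cells. A second clustering split the macrophage-like cells at resolution 0.3. It was chosen on cell numbers and markers before any CC ligand level of this clustering was viewed, since 0.5 left too few Ccr2+-like cells for a sum in tumors 2 and 3 (5 each). Counts were summed per tumor and class (at least 10 cells) and tested with edgeR 4.0.16 by its quasi-likelihood test, with TMM scaling, its filter on low counts and Benjamini-Hochberg adjustment at 0.05. Sums of 1 tumor borrow the spread of the other classes. The 3 tumors are separate mice.

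Alternatives were DESeq2 1.42.0, no filter, the tumor as a replicate block, each tumor left out, resolution 0.6, 20 dimensions, corrected counts and cells of at least 800 UMIs. Subset resolution 0.5, another random seed and leaving out cells with basophil markers were chosen after seeing the data. Classes of 1 tumor come from 1 animal, which pairs their sums. Deviations from class means correlated at 0.144 to 0.695 between sums of the same tumor (median 0.319, 18 pairs). On simulated data for the comparison of neutrophil-like cells with the subsets (2944 genes), 72.0% of changes of log2 2 and 94.6% of log2 4 were recovered, and 4.32% of calls were false. For the subsets (2700 genes) these were 89.4%, 100% and 7.73%. The simulated sums were drawn independently, without an effect of the tumor, so these rates may not hold for sums paired by tumor.

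The members and gene lists were chosen with earlier results of these data known. Named genes are the 10 members, the called or highest genes of the receptor, ligand and immediate response lists, and the 2 non-members closest to each member in log2 CPM (at 50 CPM or more in at least 1 sum). Fractions of cells were compared after thinning each cell to 500 UMIs. Intervals are exact at 95%, the limit for a count of 0 is 3 counts, and both cover counting error only. RefSeq promoters were at hand for 5 members. Some results for the receptors and 1 sequence are not reported here.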

Additional observations from a re-analysis of the deposited data

Results flagged for a closer look

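The barcodes that the authors removed lie outside the comparisons, and 4 levels in them had an interval above the value of the kept cells of the same tumor. In tumor 1 the removed barcodes stood at 837.1 CPM of Ccl2 (exact Poisson interval 811.1 to 863.7), against 91.4 CPM in kept cells, and held 77.3% of the tumor's Ccl2 UMIs. Single barcodes held 1410, 1040 and 486 of these 3927 UMIs, among 1343 removed barcodes. The interval covers counting error only and not the spread between barcodes. Ccl7 stood at 169.7 CPM there (158.1 to 181.9), against 29.8 CPM, with 67.9% of its UMIs. In tumor 3, Ccl8 stood at 20.2 CPM in the removed barcodes (18.01 to 22.66), against 12.8 CPM. Ccl24 stood at 0.809 CPM in tumor 3 (0.418 to 1.41), against 0.383 CPM, from 12 and 2 UMIs, too few to tell the levels apart.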

How the results depend on the processing

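Neutrophil-like cells against the subsets gave 0 called members, 2 with the tumor as a replicate block, 1 without the cells with basophil markers, and 0 to 1 with a tumor left out. The Ccr2+-like subset gave 0, and 1 each with no filter, with the replicate block and with corrected counts, 2 at subset resolution 0.5 (where Ccr2+-like cells gave a sum in tumor 1 only), and 0 to 1 with a tumor left out. The Apoe+-like subset gave 0. DESeq2, the replicate block and corrected counts each gave 1 member lower, of 4 tested. With 20 dimensions 1 was higher, of 7 tested, and without tumor 1, 2 or 3 also 1, of 5, 8 or 7 tested. Those fits tested members that the chosen fit had filtered out, so these counts do not show a stable call. Subset resolution 0.5 gave 1 higher and 1 lower. No filter gave 3 higher and 1 lower, beside 375 genes higher and 105 lower of 15706. The Pecam1+-like subset gave 0 in every fit run. Over all classes, 18 of 108 pairs (16.7%) became 9 with DESeq2 (8.33%), 25 with the replicate block (23.1%) and 25 of 120 with no filter (20.8%). They became 17 with another random seed (15.7%), and 15 to 19 with a tumor left out (13.9% to 19.8%). The share of all pairs of a class and a gene was counted for the chosen fit only. A shift of the members alone can therefore not be told from a shift of all genes. No called result reversed its direction in the alternatives run. The replicate block raised all genes called in the Ccr2+-like subset from 7 higher and 1 lower to 77 and 94, in the Pecam1+-like subset from 113 and 118 to 369 and 267, and in the Apoe+-like subset from 210 and 103 to 344 and 323. Without a filter, Ccr2+-like cells had 67 higher and 23 lower. The causes were not tested. The sums of tumors 2 and 3 are small (10 to 39 cells per subset). Cluster borders moved with the random seed and with numeric settings of the computer, and with them the class that held the cells with basophil markers. Under another numeric setting, not kept here, Ccl9 was called lower in neutrophil-like cells than in the subsets, and Ccl8 in Apoe+-like and Ccl2 in Ccr2+-like cells were called higher than in the other subsets.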
